A study of Rattus norvegicus with 2 samples.

Results

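Growth factors that support neurons, and a receptor for them, were taken by symbol, 9 of the 25399 genes listed: midkine (Mdk, ENSRNOG00000017560), pleiotrophin (Ptn, ENSRNOG00000011946), brain-derived neurotrophic factor (Bdnf, ENSRNOG00000047466), glial cell line-derived neurotrophic factor (Gdnf, ENSRNOG00000012819), neurotrophin-3 (Ntf3, ENSRNOG00000019716), the p75 neurotrophin receptor (Ngfr, ENSRNOG00000005392), mesencephalic astrocyte-derived neurotrophic factor (Manf, ENSRNOG00000014201), vascular endothelial growth factor A (Vegfa, ENSRNOG00000019598) and fibroblast growth factor 2 (Fgf2, ENSRNOG00000017392). Their mRNAs were counted in single cells of the rat optic nerve from a wild type (WT) Sprague Dawley library and a Nuc1 library, 1 library per genotype, both labelled as postnatal day 7. Nuc1 rats carry a spontaneous insertion in Cryba1, the gene of βA3/A1-crystallin, in every cell and not in astrocytes alone. The material was a mixed primary glial culture, the number of animals behind each library is not given in the sources used here, and the study set the genotypes against each other in astrocytes.

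Growth factors of this kind are secreted by glia and connective tissue cells and bind receptors on neurons and on the glia themselves. In the optic nerve, which holds the axons of retinal ganglion cells but not their cell bodies, astrocytes, oligodendrocytes and meningeal cells are the local sources. Neurotrophins act through Trk receptor tyrosine kinases and through p75, midkine and pleiotrophin bind heparan sulphate and the receptor phosphatase Ptprz1, GDNF acts through Ret and its co-receptors, and MANF is held in the endoplasmic reticulum and is released under stress. Vegfa is best known as a target of the hypoxia response and Bdnf as a target of neuronal activity and cyclic AMP signalling.

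Bdnf and Vegfa were the members lower in Nuc1, by the 95% counting interval described below, in most clusters with enough counts (5 of 5 and 8 of 9). A promoter window of each is printed for that reason. RefSeq windows (GRCr8), from 250 bases before to 50 bases after an annotated start, matched 6 of the 9 members with 14 windows, and Mdk, Ngfr and Manf had none. The Bdnf window is chr3:116637608-116637907 on the plus strand, with the cyclic AMP response element core TGACG in capitals as its reverse complement. The Vegfa window is chr9:22452604-22452903 on the plus strand, with the GC box GGGCGG in capitals.
Bdnf: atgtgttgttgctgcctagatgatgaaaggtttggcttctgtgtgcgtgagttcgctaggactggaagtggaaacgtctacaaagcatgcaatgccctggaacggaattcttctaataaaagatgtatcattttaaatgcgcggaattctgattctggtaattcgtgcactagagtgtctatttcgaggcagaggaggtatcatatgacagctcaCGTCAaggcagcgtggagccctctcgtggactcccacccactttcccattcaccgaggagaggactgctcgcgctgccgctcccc
Vegfa: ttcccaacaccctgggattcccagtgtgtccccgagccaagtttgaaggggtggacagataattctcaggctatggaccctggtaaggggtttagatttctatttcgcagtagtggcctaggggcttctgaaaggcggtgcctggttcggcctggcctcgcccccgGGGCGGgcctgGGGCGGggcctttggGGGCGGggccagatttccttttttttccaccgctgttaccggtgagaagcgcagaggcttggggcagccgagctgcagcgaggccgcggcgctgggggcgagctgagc

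Searched on both strands, TGACG was found in this window alone among the 6 windows of Bdnf, at -35 from the start, where it overlaps the hypoxia response core ACGTG at -37. TGACG is present in 21.2% of all 33469 windows and ACGTG in 19.3%. The 3 GC boxes of Vegfa lie at -84, -73 and -58, and 33.1% of all windows hold at least 1. The AP-1 sequence TGANTCA, present in 7.33% of windows, was found in another Bdnf window at -152. Neither Vegfa window holds ACGTG, which says only that these letters are not in these windows. A match is a description of the sequence.

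After filtering, 1961 WT and 1780 Nuc1 cells remained, with median depths of 14050 and 16567.5 UMIs (unique molecular identifiers, 1 per captured mRNA molecule), and 2 cell barcodes occurred in both libraries. Cells were clustered without the 9 members among the features, and clusters were named from marker lists. Cluster 3 (106 WT and 349 Nuc1 cells) was astrocyte-like. It had the highest summed level of the 9 astrocyte markers, 41450 UMIs in WT and 52030 in Nuc1 per 1000000 UMIs (CPM). Cluster 6 came next, at 19840 and 23750 CPM, and most other clusters also held a UMI of each marker. Clusters 0, 1, 2, 4, 5 and 7 were rich in collagen mRNAs: cluster 0 was led by Igfbp5 and Ccn3, cluster 1 by Lum and Penk, cluster 2 by Cldn11, cluster 4 by Inmt and Cyp26b1, and 5 and 7 by genes of dividing cells. Cluster 6 was motile cilia-like, 8 oligodendrocyte lineage-like and 10 macrophage and microglia-like, and cluster 9, led by Ttr, Gldn and Fbln2, was left unnamed. Ttr was not a trait of cluster 9 as a whole, since 4 Nuc1 cells held 3372 to 13661 Ttr UMIs each. None of its 23 WT cells held a Ttr UMI, and its other 26 Nuc1 cells held at most 1 each. The cell make-up differed: cluster 4 was 2.703% of WT and 20.6% of Nuc1 cells, and cluster 3 was 5.41% and 19.6%. Cryba1 had 0 UMIs in both libraries, so it checks neither label. The Y-linked gene Eif2s3y had 3 UMIs in WT and 896 in Nuc1, so sex and genotype cannot be told apart.

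Levels are in CPM of a cell group, and every interval is an exact 95% interval that covers counting error only. With 1 library per genotype no difference between genotypes was tested, and "higher" and "lower" below compare these 2 libraries. A ratio is given as log2 of Nuc1 over WT, with at least 20 UMIs over both libraries unless stated.

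**Figure D1:**
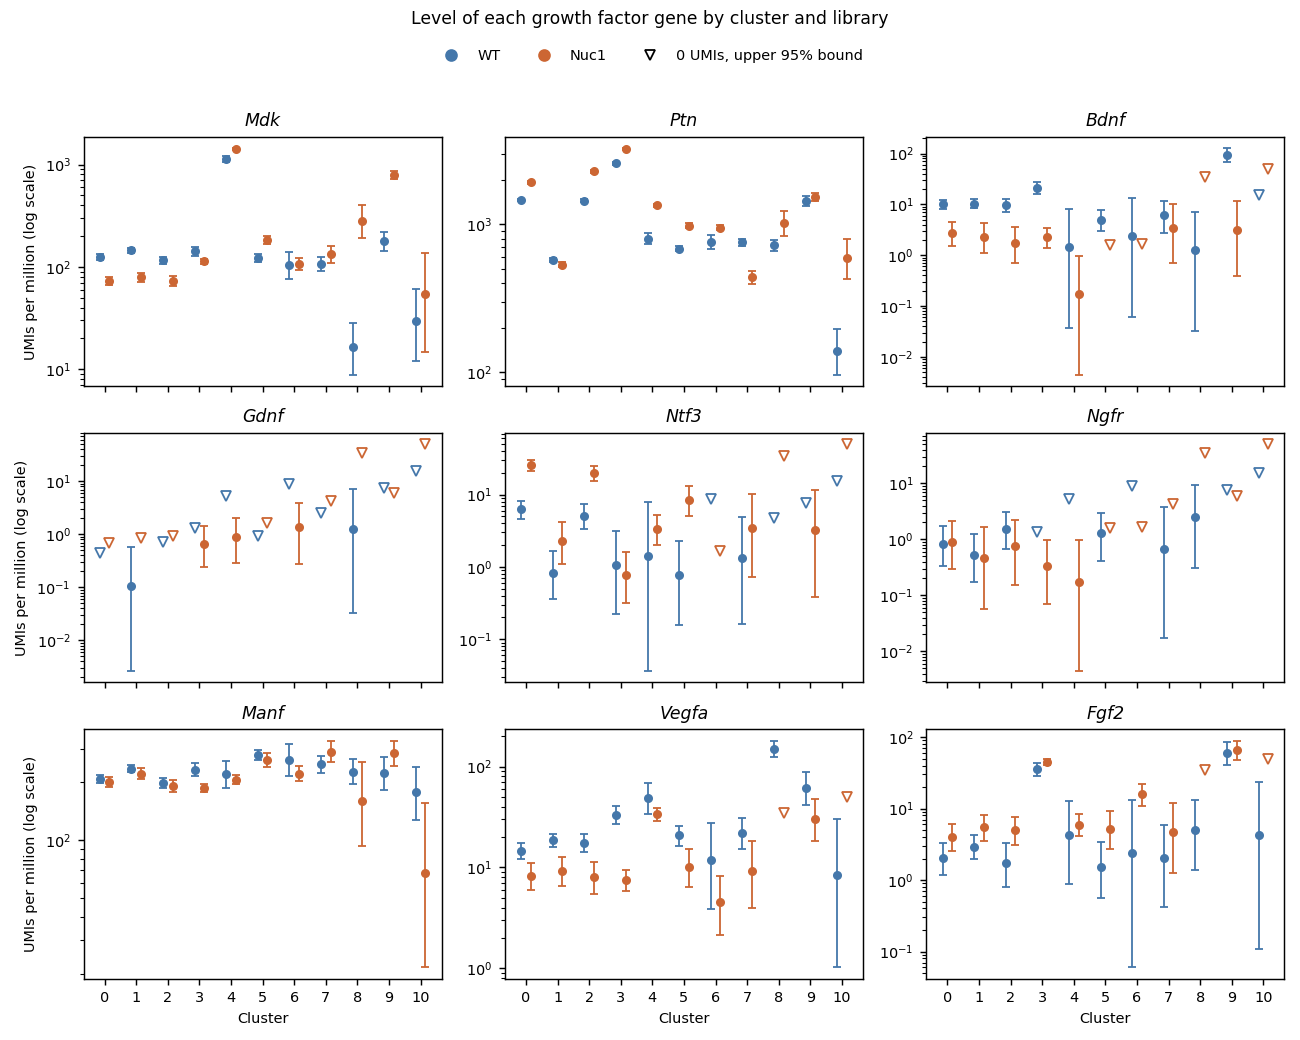
Level of each of the 9 members (CPM, log axis) in each of the 11 clusters, WT and Nuc1 apart, with exact 95% counting intervals and open triangles at the upper bound where no UMI was counted. Mdk stands highest in cluster 4 in both libraries (1126 and 1412 CPM) and Ptn in cluster 3, while Gdnf and Ngfr have at most a few UMIs in most clusters.

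Midkine and pleiotrophin form a family of heparin-binding cytokines that promote neurite growth, and in these libraries they peaked in different cells. Mdk was highest in the Inmt and Cyp26b1 cluster (cluster 4), at 1126 CPM in WT (interval 1049 to 1208) and 1412 in Nuc1 (1381 to 1443). Ptn was highest in the astrocyte-like cells, at 2580 CPM in WT (2521 to 2641) and 3223 in Nuc1 (3185 to 3260). All 106 WT and all 349 Nuc1 astrocyte-like cells held a Ptn UMI.

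In WT the Mdk level of cluster 4 was 6.32 times that of the next cluster, cluster 9 at 178.1 CPM, and the clusters below it from 145.0 (cluster 1) to 104.9 (cluster 6) had intervals that overlapped their neighbours. The lowest were cluster 10 at 29.6 and cluster 8 at 16.5 CPM. In Nuc1 the fold over the next cluster was 1.79, because cluster 9 stood at 786.9 CPM. Of the 492 Mdk UMIs of that cluster in Nuc1, 404 came from 4 cells with over 1000 UMIs of Ttr each, the transthyretin carrier made by choroid plexus epithelium, and those 4 cells held 11, 97, 110 and 186 Mdk UMIs. Without them cluster 9 was at 178.1 CPM in WT and 172.3 in Nuc1 (log2 ratio -0.05, interval -0.49 to 0.40). Their Mdk level was 3531 CPM (3195 to 3893), the highest of any group of cells looked at, and they were singled out after their values were seen. The same 4 cells held 1 Ptn UMI and 0 of Bdnf and Fgf2, a Ptn level of 8.74 CPM with an upper bound of 48.7.

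At the thinned depth of 5000 UMIs per cell, 86.8% of WT and 92.9% of Nuc1 cells in cluster 4 held a UMI, while the astrocyte-like cluster gave 50.5% and 36.1% (89.6% and 73.1% unthinned). In macrophage and microglia-like cells the unthinned share was 8.33% and 9.09% at median depths of 8231 and 1807.5 UMIs.

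Between genotypes Mdk went both ways. It was lower in Nuc1 in clusters 0 (124.5 against 72.8 CPM, log2 ratio -0.77), 1 (145.0 against 79.0, -0.88), 2 (115.7 against 72.6, -0.67) and in astrocyte-like cells (141.7 against 113.2, -0.32, interval -0.49 to -0.15). The astrocyte-like value was not stable: it was 0.13, 0.42 and 0.18 when cells with 200 genes were let in, when those over 10% mitochondrial UMIs were dropped and when doublets stayed, where Ttr-rich Nuc1 cells joined the cluster, and -0.16 (-0.33 to 0.02) with TMM scaling, a trimmed mean of gene ratios. Mdk was higher in cluster 4 (log2 ratio 0.33, 0.22 to 0.43) and in the dividing cluster 5 (121.4 against 183.5 CPM, 0.60). In cluster 5 the share of cells with an Mdk UMI was 55.9% in WT and 49.3% in Nuc1 (35.2% and 36.0% thinned). The median cell of cluster 5 was at 40.9 and 0 CPM, and 1 Nuc1 cell held 52 of the 419 Mdk UMIs. The intervals of clusters 6 and 7 included 0. In cluster 8 it was 13 against 30 UMIs (16.5 and 280.9 CPM, log2 ratio 4.09, 3.104 to 5.15), with 10 Nuc1 cells in all and 16 of the 30 UMIs in 1 of them.

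**Figure D2:**
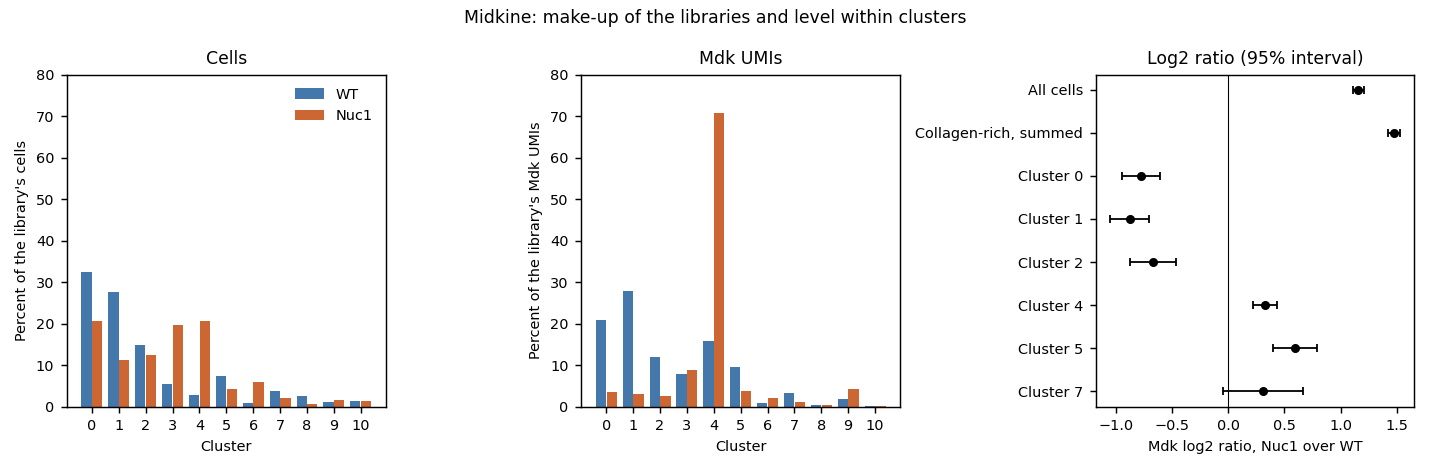
Left and centre, the percent of each library's cells and of its Mdk UMIs that each cluster held. Right, the Mdk log2 ratio of Nuc1 over WT summed and in each collagen-rich cluster, with 95% counting intervals. Cluster 4 held 2.703% of WT cells and 15.8% of WT Mdk UMIs, and 20.6% and 70.7% in Nuc1, and the ratios of clusters 0, 1 and 2 lie below 0 while the summed ratio of 1.48 lies above.

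Summed over all cells, Mdk was 147.3 CPM in WT and 328.8 in Nuc1 (log2 ratio 1.16, 1.11 to 1.21), and cluster 4 held 785 of 4980 Mdk UMIs in WT and 8051 of 11392 in Nuc1. Over the 6 collagen-rich clusters it was 152.4 and 424.2 CPM (log2 ratio 1.48). With these clusters weighted equally the log2 ratio was -0.18, so the sign of the summed value depends on how many cells each cluster gave in each library.

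Ptn was higher in Nuc1 in 8 of 11 clusters, in astrocyte-like cells by a log2 ratio of 0.32 (0.28 to 0.36). Clusters 0 (1455 against 1917 CPM, 0.40), 2 (1440 against 2274, 0.66), 4 (797.7 against 1347, 0.76) and 5 (681.3 against 978.6, 0.52) went the same way, as did clusters 6 (0.32) and 8 (0.51). Cluster 6 had 15 WT cells. Cluster 8 had 10 Nuc1 cells, and 1 of them held 54 of its 109 Nuc1 Ptn UMIs. The median cell went the other way, at 525.7 CPM in WT and 259.6 in Nuc1 in cluster 6 and 568.6 and 296.6 in cluster 8. At full depth Ptn was lower in the Lum and Penk cells of cluster 1 (573.5 against 532.6 CPM, -0.11) and in the dividing cluster 7 (752.3 against 436.3 CPM, -0.79, -0.96 to -0.62). The lower Ptn of cluster 1 was not seen after thinning (657.2 CPM in WT and 665.7 in Nuc1). In cluster 7 most of the difference was gone after thinning (745.9 and 702.7 CPM). Cluster 9 was at 1429 and 1526 CPM (0.09, -0.05 to 0.24), and at 1429 and 1866 (0.38) without the Ttr-rich cells. In macrophage and microglia-like cells Ptn was lowest in WT, 33 UMIs against 44 in Nuc1 (139.5 and 590.1 CPM), with 32 of the 44 in 1 cell. The collagen-rich sum was 1008 and 1421 CPM (0.50, 0.47 to 0.52). Astrocyte-like cells held 18.8% of the WT and 44.9% of the Nuc1 Ptn UMIs.

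The listed receptors of this pair were measured in the same cells. Of 13 genes, 11 had at least 20 UMIs in astrocyte-like cells, 7 lower in Nuc1, 1 higher and 3 with an interval that included 0. Their median log2 ratio was -0.20 against -0.12 over all 10600 genes with that many UMIs there, of which 25.3% were lower and 10.9% higher. Ptprz1, the receptor phosphatase that Ptn and Mdk bind, was at 404.6 CPM in WT and 401.5 in Nuc1 astrocyte-like cells (-0.01, -0.11 to 0.09) and was highest in cluster 8, at 830.5 and 552.5. Sdc3, the syndecan also known as a Ptn receptor, was at 22.7 and 5.14 CPM (-2.14), and Sdc1 at 18.3 and 5.14 (-1.83). Lrp1, an endocytic receptor of Mdk, was the 1 that was higher, at 142.1 and 196.0 CPM (0.46, 0.31 to 0.63). In collagen-rich clusters 12 of the list had at least 20 UMIs, 5 lower and 6 higher, with a median of 0.17 against 0.03 over all genes. There 25.5% of all genes were lower and 31.0% higher. These values are of sums over the collagen-rich clusters. Within every single one of them the median of the list was below 0, from -0.22 (cluster 1) to -0.07 (cluster 4).

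Bdnf, a neurotrophin that sustains retinal ganglion cells through the receptor TrkB, was low throughout and lower in Nuc1. All WT cells held 366 Bdnf UMIs and all Nuc1 cells 58, which is 10.8 and 1.67 CPM. In WT it was highest in cluster 9, at 95.3 CPM (69.7 to 127.1), followed by astrocyte-like cells at 20.9 (15.8 to 27.0). Clusters 0, 1 and 2 stood at 9.97, 10.3 and 9.73 CPM and did not differ beyond their intervals. In macrophage and microglia-like cells 0 of 24 WT and 0 of 22 Nuc1 cells held a UMI, with intervals for the share of cells with a UMI that ended at 14.2% and 15.4%, and at the Nuc1 median of 1807.5 UMIs a gene at a few CPM would not be seen. Cluster 4 held 1 Bdnf UMI in each library.

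In astrocyte-like cells the count was 58 UMIs in WT and 20 in Nuc1, or 20.9 and 2.24 CPM, a log2 ratio of -3.22 (-4.03 to -2.47). A UMI was present in 18 of 106 WT cells (17.0%) and 14 of 349 Nuc1 cells (4.01%), and in 4.76% and 0.872% after thinning, with intervals that overlap. The highest WT cell held 13 of the 58 UMIs, and with the top cell of each library left out the log2 ratio was -3.104. With the 17 WT and 62 Nuc1 astrocyte-like cells left out that were rich in fibroblast mRNAs (over 300 CPM), it was -3.63.

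The same direction held in each of the 5 clusters with at least 20 Bdnf UMIs. These were cluster 0 with 83 and 15 UMIs (-1.87, -2.77 to -1.06), cluster 1 with 98 and 10 (-2.15, -3.26 to -1.21), cluster 2 with 50 and 7 (-2.48, -3.86 to -1.33), cluster 3, and cluster 9 with 46 and 2 (-4.90, -7.98 to -2.96). In cluster 9 a single WT cell held 19 of the 46 UMIs and the next 12 and 6. The dividing cluster 5 held 19 WT and 0 Nuc1 UMIs, 1 short of the minimum, and the interval of the log2 ratio ended at -1.45. Over the collagen-rich clusters it was 260 and 36 UMIs (8.93 and 1.59 CPM, -2.49, -3.04 to -1.99).

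**Figure D3:**
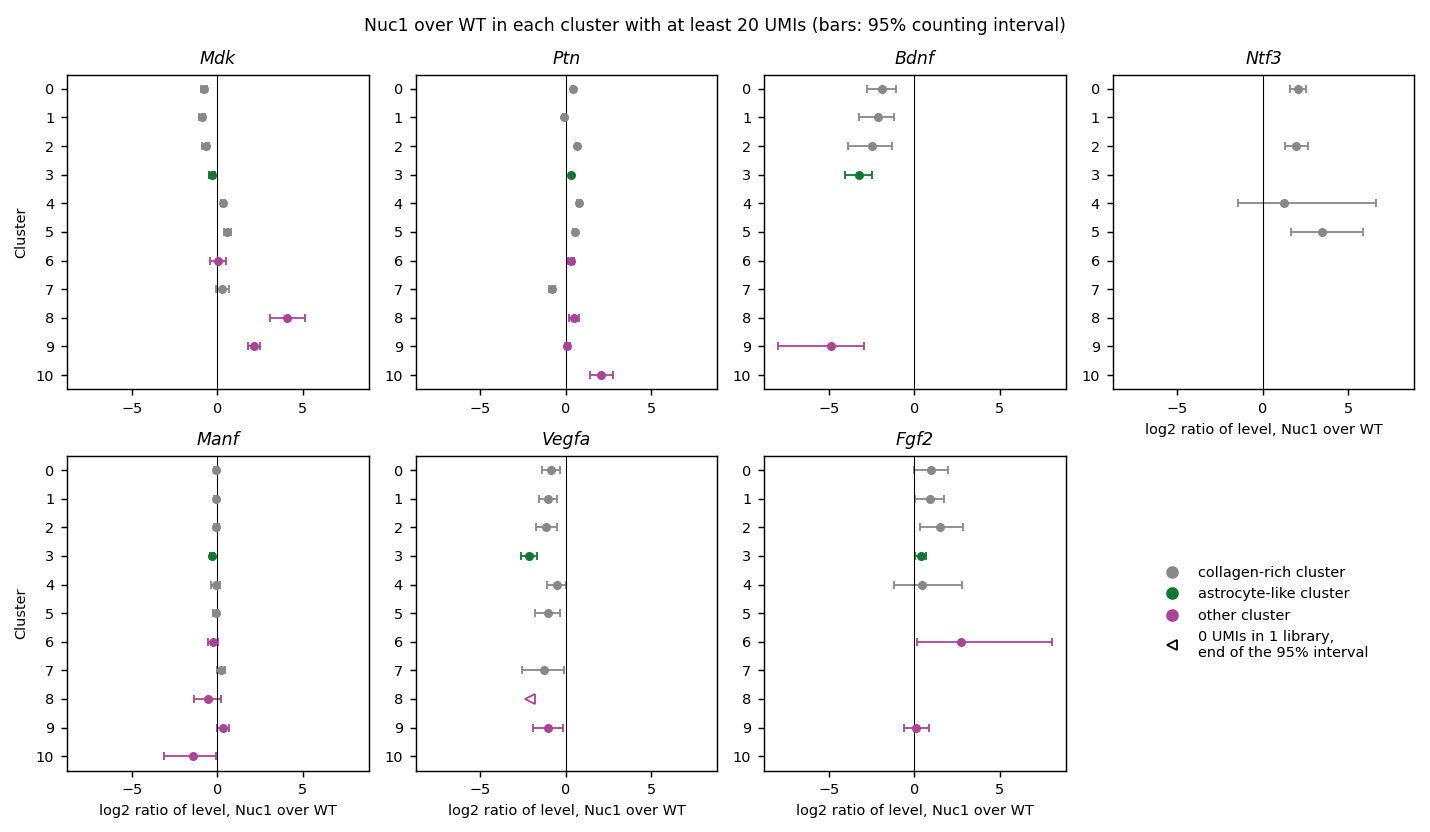
Log2 ratio of Nuc1 over WT for the 7 members with a ratio in any cluster of at least 20 UMIs, with exact 95% counting intervals and a line at 0. The open triangle is the end of the interval for Vegfa in cluster 8, which held 0 UMIs in Nuc1. Bdnf lies below 0 in 5 of 5 clusters and Vegfa in 8 of 9 with its whole interval, while Mdk lies on both sides.

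Neurotrophin-3, which supports sensory neurons and oligodendrocyte precursors through TrkC, was highest in other cells and moved the other way. It was highest in clusters 0 and 2 in both libraries and came to 3 and 7 UMIs in astrocyte-like cells. Clusters 6, 8 and 10 held 0 Ntf3 UMIs in both libraries. In cluster 0 it was 52 UMIs in WT and 140 in Nuc1 (6.25 and 25.6 CPM, 2.03, 1.56 to 2.52), and in cluster 2 it was 26 and 79 (5.06 and 19.7 CPM, 1.96, 1.31 to 2.66). After thinning, the share of cluster 0 cells with a UMI was 2.38% in WT and 12.1% in Nuc1 (6.45% and 26.6% unthinned), and in astrocyte-like cells 0.952% and 0.291%. Cluster 5 held 3 and 19 UMIs (3.43, 1.67 to 5.83), and cluster 4 held 1 and 19 with an interval that included 0 (-1.44 to 6.59). Summed over the collagen-rich clusters Ntf3 was 3.16 and 11.9 CPM (1.91, 1.57 to 2.27), and 1.91 with the clusters weighted equally.

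Ngfr, the p75 receptor of all neurotrophins and a marker of immature Schwann cells, had 28 UMIs in WT and 14 in Nuc1. Astrocyte-like cells held 0 in WT, which allows a level of up to 1.08 CPM at a floor of 3 counts, and 3 in Nuc1. Collagen-rich clusters held 26 and 11 (log2 ratio -0.88, -2.05 to 0.19). In neither cell class was a difference in Ngfr detectable at this depth, and over all cells, whose make-up differed, the log2 ratio was -1.03 (-2.07 to -0.06).

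Receptors of the neurotrophins were measured in the same cells. Ntrk2, which encodes TrkB, was at 1029 and 1158 CPM in astrocyte-like cells (0.17, 0.11 to 0.23) and at 17.2 and 51.6 in collagen-rich clusters (1.59). Ntrk3, which encodes TrkC, was at 16.9 and 2.91 CPM in astrocyte-like cells (-2.54, -3.29 to -1.82) and at 47.7 and 9.26 in collagen-rich clusters (-2.36). In collagen-rich clusters Ntf3 was thus higher and Ntrk3 lower in the Nuc1 library. Of the listed receptors 4 could be compared in each cell class, 2 lower and 1 higher in astrocyte-like cells and 1 lower and 2 higher in collagen-rich clusters. Over all genes 25.3% were lower and 10.9% higher in astrocyte-like cells, and 25.5% and 31.0% in collagen-rich clusters.

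Gdnf, a survival factor for motor and dopaminergic neurons, had 2 UMIs in WT and 14 in Nuc1 (0.0592 and 0.404 CPM, 2.77, 0.65 to 5.95), fewer than the minimum of 20 UMIs. The 14 Nuc1 UMIs lay in 14 cells, 6 of them astrocyte-like, 5 in cluster 4 and 3 in the motile cilia-like cluster 6. In WT the astrocyte-like cells held 0, which allows up to 1.08 CPM, so the Nuc1 level of 0.671 CPM there is within what WT could hold. Its receptor Ret had 3 UMIs in WT and 36 in Nuc1 astrocyte-like cells (1.08 and 4.03 CPM, 1.90, 0.24 to 4.24) and 0 in collagen-rich clusters. Of the 8 genes of the GDNF family found, 4 could be compared in astrocyte-like cells, 1 higher and 3 with an interval that included 0, at a median of 0.51 against -0.12 over all genes. The all-gene shares there were 25.3% lower and 10.9% higher. Nrtn, the ligand neurturin, was at 1.65 and 6.93 CPM in collagen-rich clusters (2.07), and Gfra2, its co-receptor, at 8.62 and 1.76 (-2.29).

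Manf was the most even of the set, from 177.5 to 278.3 CPM over the WT clusters and from 67.1 to 289.3 over the Nuc1 clusters. It was lower in Nuc1 astrocyte-like cells, 232.7 against 186.8 CPM (-0.32, -0.45 to -0.18), and in macrophage and microglia-like cells, 42 against 5 UMIs (-1.40, -3.1 to -0.07). In the other 9 clusters the interval included 0, and the collagen-rich sum was 227.4 and 214.3 CPM (-0.09). The Nuc1 macrophage and microglia-like cells had a median of 1807.5 UMIs and 0.266% mitochondrial UMIs, against 8231 and 7.12% in WT.

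Chaperones of the endoplasmic reticulum, which share the stress response of Manf, were measured beside it. In astrocyte-like cells 14 of 15 listed genes could be compared, 8 lower, 1 higher and 5 with an interval that included 0, at a median of -0.31 against -0.12 over all genes. These counts stand beside 25.3% of all genes lower and 10.9% higher. Hspa5, the chaperone BiP that binds Manf, was at 392.8 and 275.7 CPM (-0.51, -0.61 to -0.41), and Hyou1, a co-chaperone, at 39.2 and 14.3 (-1.45). Ddit3, which encodes the stress factor CHOP, was the 1 higher gene, at 32.4 and 43.1 CPM (0.41, 0.08 to 0.76). In collagen-rich clusters all 15 could be compared, 6 lower and 2 higher, at a median of -0.04 against 0.03. Of all genes in those clusters 25.5% were lower and 31.0% higher.

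Vegfa in WT was highest in oligodendrocyte lineage-like cells, at 151.4 CPM (125.4 to 181.1), with a UMI in 39 of 52 cells. Next came cluster 9 at 62.1 (41.9 to 88.7), cluster 4 at 48.8 (33.8 to 68.2) and astrocyte-like cells at 33.5 (27.0 to 41.0), each overlapping its neighbour. The other WT clusters lay between 8.45 and 22.2 CPM.

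In Nuc1 the order differed, with clusters 4 (33.7 CPM) and 9 (30.4) highest. Astrocyte-like cells held 93 UMIs in WT and 67 in Nuc1, or 33.5 and 7.49 CPM (-2.16, -2.63 to -1.69). The share of these cells with a UMI was 47.2% and 15.5%, and 8.57% and 3.49% after thinning, with intervals that overlap. Oligodendrocyte lineage-like cells held 119 UMIs in WT and 0 in Nuc1, and the interval of the log2 ratio ended at -2.11. None of the 10 Nuc1 cells held a UMI, and the interval of that share of cells with a UMI ended at 30.8%. Macrophage and microglia-like cells held a Vegfa UMI in 8.33% of 24 WT cells and in 0 of 22 Nuc1 cells.

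Vegfa was also lower in clusters 0 (14.7 against 8.21 CPM, -0.84), 1 (18.6 against 9.24, -1.01), 2 (17.5 against 7.99, -1.13), 5 (20.8 against 10.1, -1.05), 7 (22.2 against 9.26, -1.26) and 9 (62.1 against 30.4, -1.03). Cluster 4 was the exception among the 9 clusters with at least 20 UMIs, with an interval that included 0 (-0.54, -1.07 to 0.04). Cluster 4 held 44.0% of the Nuc1 Vegfa UMIs and 4.32% of those of WT, so the collagen-rich sum differed little, 18.5 and 15.0 CPM (-0.30), while the mean with clusters weighted equally was -0.97.

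Of 9 other listed VEGF ligands and receptors 5 could be compared in astrocyte-like cells, 2 lower and 3 with an interval that included 0, at a median of -0.10 against -0.12 over all genes. Among all genes 25.3% were lower there and 10.9% higher. Vegfb, a related ligand, was at 26.3 and 3.802 CPM (-2.79) and Nrp2, a co-receptor, at 166 and 128.6 (-0.37). In collagen-rich clusters 8 could be compared, 3 lower (25.5% of all genes) and 4 higher (31.0%), at a median of 0.26 against 0.03. That is the median for sums over these clusters. It lay above the median of every single collagen-rich cluster, which ran from -0.73 (cluster 0) to 0.16 (cluster 2). Flt1, a receptor of Vegfa, was at 3.20 and 19.5 CPM over the collagen-rich clusters summed (2.61) and at 34.4 and 65.8 in cluster 4 alone. Kdr, the main signalling receptor of endothelium, had 11 and 22 UMIs in those clusters. Of 12 hypoxia response genes 10 could be compared in astrocyte-like cells, 7 lower and none higher, at a median of -0.43 against -0.12 over all genes, of which 25.3% were lower and 10.9% higher. Adm, adrenomedullin, was at 42.8 and 12.8 CPM (-1.75), and Ldha, lactate dehydrogenase and the highest of the list, at 979.0 and 939.9 (-0.06, -0.12 to 0.004).

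Fgf2, a mitogen for glia and a survival factor for neurons, was highest in the unnamed cluster 9 and in astrocyte-like cells in both libraries. Cluster 9 stood at 60.1 CPM in WT (40.2 to 86.3) and 65.6 in Nuc1 (47.1 to 89.0). Astrocyte-like cells stood at 35.3 (28.6 to 43.0) and 45.4 (41.1 to 50.04), and the intervals of both clusters overlapped in both libraries. All other WT clusters were at or below 5.09 CPM. Astrocyte-like cells held 49.3% of all Fgf2 UMIs in WT and 67.9% in Nuc1.

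The Fgf2 ratio in astrocyte-like cells was 0.37 (0.04 to 0.70) from 98 and 406 UMIs, and with at most 10% mitochondrial UMIs allowed per cell it was -0.07. The share of cells with a UMI was 51.9% and 58.2%, and 14.3% and 24.1% after thinning with overlapping intervals, against 1.11% and 1.37% of cluster 0 cells at the same depth. Clusters 1 (2.93 against 5.54 CPM, 0.92), 2 (1.75 against 4.99, 1.51), 5 (6 and 12 UMIs, 1.77) and 6 (1 and 35 UMIs, 2.72, 0.15 to 8.07) were higher in Nuc1, and the collagen-rich sum was 2.27 and 5.12 CPM (1.17). Cluster 5 had 18 UMIs in all and is given as a value.

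Of 17 FGF ligands, receptors and feedback genes 10 could be compared in astrocyte-like cells, 5 lower, 1 higher and 4 with an interval that included 0, at a median of -0.30 against -0.12 over all genes, beside the same 25.3% and 10.9%. Fgfr2, a receptor, was at 96.0 and 45.2 CPM (-1.09), and the feedback inhibitors Spry2 and Spry4 were at 37.8 and 14.2 (-1.41) and 14.4 and 5.14 (-1.48). Etv4, a transcription factor induced by FGF signalling, was at 8.27 and 17.6 (1.09). In collagen-rich clusters 15 could be compared, 4 lower (25.5% of all genes) and 5 higher (31.0%), at a median of 0.21 against 0.03. Within single collagen-rich clusters the median of the list ran from -0.22 (cluster 2) to 0.49 (cluster 1).

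**Figure D4:**
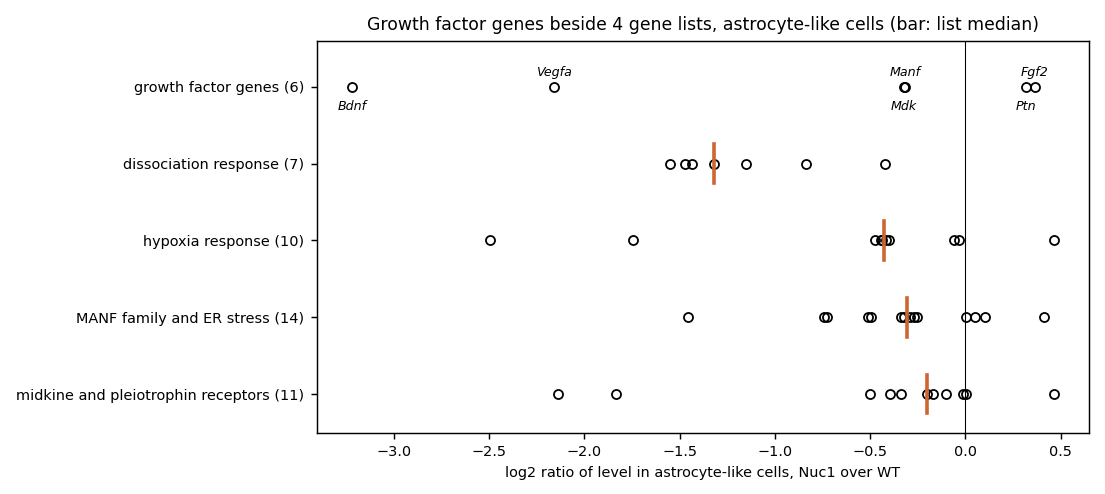
Log2 ratio of Nuc1 over WT in astrocyte-like cells for the 6 members and for each gene of 4 lists with at least 20 UMIs, 1 circle per gene, with a bar at each list's median and a line at 0. All 7 dissociation response genes lie below 0, with a median of -1.32, and Bdnf (-3.22) lies below every gene of the 4 lists.

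Immediate early genes, which cells switch on during tissue dissociation, were lower in Nuc1, as were Bdnf and Vegfa. Ptn and Fgf2 went the other way in astrocyte-like cells and in collagen-rich clusters. Of 8 listed, 7 were found and all 7 were lower in Nuc1 astrocyte-like cells (median -1.32) and in collagen-rich clusters (median -0.87). By the interval 25.3% and 25.5% of all genes were lower in these 2 cell classes. Fos, a subunit of AP-1, was at 1011 and 405.6 CPM in astrocyte-like cells (-1.32), and Egr1 at 663.6 and 226.2 (-1.55). The median mitochondrial share of these cells was 13.0% in WT and 10.9% in Nuc1. The part of the dissociation response in the Bdnf and Vegfa values was not tested.

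Read against all genes, the members' counts were as follows. In astrocyte-like cells 6 members had at least 20 UMIs. Bdnf and Vegfa were at least 2-fold lower in Nuc1, as were 7.24% of all genes, and no member was at least 2-fold higher, as were 4.12%. By the counting interval 4 were lower (Bdnf, Vegfa, Mdk and Manf) beside 25.3% of all genes, and Ptn and Fgf2 were higher beside 10.9%. In collagen-rich clusters 8 members had at least 20 UMIs. Bdnf was at least 2-fold lower, beside 5.02% of all genes, and Mdk, Ntf3 and Fgf2 at least 2-fold higher, beside 6.85%. By the interval 3 were lower (Bdnf, Vegfa and Manf) beside 25.5%, and 4 were higher (Mdk, Ptn, Ntf3 and Fgf2) beside 31.0%.

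Across single clusters, 6 members had at least 20 UMIs in at least 5 clusters. Bdnf (5 of 5) and Vegfa (8 of 9) were lower by the interval in at least 80% of these and higher in none, which 2.4% of 9588 genes were. No member was higher in that many, which 1.07% of genes were. All these calls are at full depth, and the lower Vegfa of cluster 7 was not seen after thinning (27.0 CPM in both libraries). Of the 7 members with at least 100 UMIs, 4 had the same highest cluster in both libraries, Mdk (cluster 4), Ptn (3), Ntf3 (0) and Fgf2 (9), beside 45.2% of all genes, which is near the background. None was at least 2-fold over the next cluster in both libraries, beside 9.11%.

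**Figure D5:**
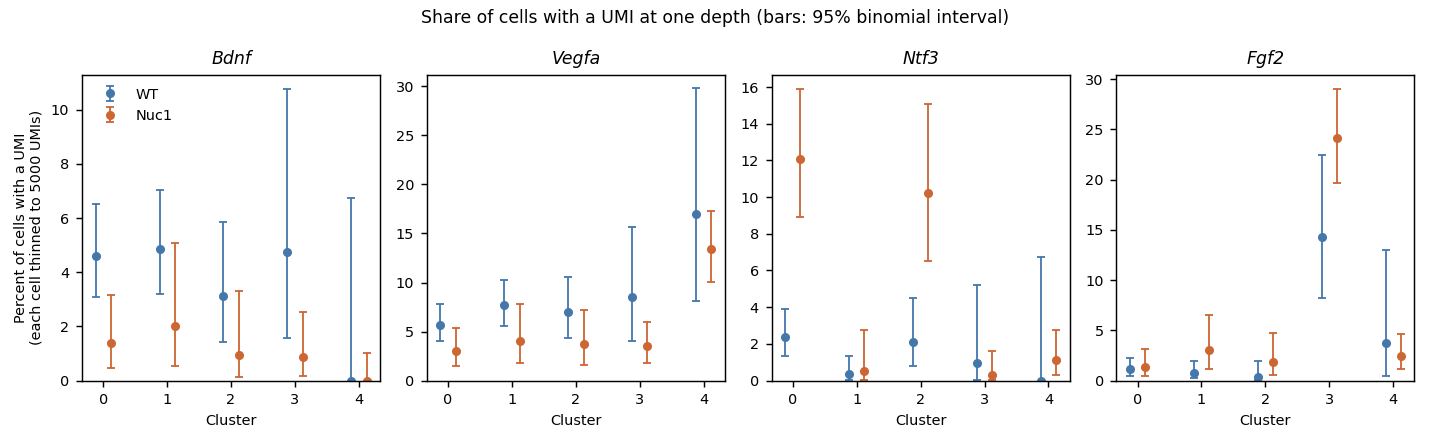
Percent of cells with at least 1 UMI of Bdnf, Vegfa, Ntf3 and Fgf2 in clusters 0 to 4 after each cell was thinned to 5000 UMIs, WT and Nuc1 apart, with exact 95% binomial intervals. In astrocyte-like cells (cluster 3) Fgf2 is seen in 14.3% (WT) and 24.1% (Nuc1) and Bdnf in 4.76% and 0.872%, and the Ntf3 intervals of the libraries are apart in clusters 0 and 2.

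The members differed in which other genes varied like them. Over 22 points (11 clusters in each library), which share libraries, depth and cell make-up, the 5 genes of 10409 with the highest Pearson r of log2(CPM + 1) were named for each. For Mdk these were Mmp23 (0.82), Robo2, Bet1, Plscr1 and Fkbp9, and for Ptn Suclg2 (0.84), Ptprf, Mmut, Znfx1 and Flot2. Bdnf was most like Svbp (0.83), Sav1, Cyb5r3, Bche and Arsi, and Ntf3 most like Sphkap (0.91), Tlr12, Cygb, Nfe2 and Wbp1l. Manf was most like Pdia4 (0.92), itself an endoplasmic reticulum chaperone, then Ckap4, Bnip2, Anapc7 and Tm9sf1. All 5 were at 0 CPM in Nuc1 cluster 10, a shallow point where Manf was lowest (67.1 CPM, 5 UMIs). The r without that point was not computed. Vegfa was most like Abi1 (0.88), Slc7a6, Trappc8, Bcl2 and Krt10, and Fgf2 most like St6galnac5 (0.90), Notum, Panx2, Prex2 and Dgkb. Of the Vegfa companions, all but Abi1 were at 0 CPM in Nuc1 clusters 8 and 10, where Vegfa itself had 0 UMIs.

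Bdnf and its companions were also counted in the same cells. Of the 18 WT astrocyte-like cells with a Bdnf UMI, 12 held a UMI of Vegfa and 15 a UMI of Fgf2, while 50 and 55 of all 106 cells did. In Nuc1, 5 and 10 of the 14 Bdnf cells held Vegfa and Fgf2, and 54 and 203 of all 349 cells did. Deeper cells hold more of every gene, and these counts were not adjusted for depth.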

How the data were processed

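UMI counts per gene and cell (10x Genomics 3′ chemistry) were used as deposited by the authors, as a filtered matrix per library and not normalized. The submitters' processing notes name Cell Ranger 3.1.0, STAR 2.7 and Seurat 3.1.0 and 3.1.1. The genome build is not given in the sources used here. The labels give postnatal day 7 and the study's methods describe cultures from younger pups.

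Filters of 500 genes or more per cell and 20% mitochondrial UMIs or less (13 genes) left 1968 and 1793 cells. Scrublet in scanpy 1.11.5 (expected rate 0.02) then marked 7 and 13 doublets, which were left out, and doublets can remain. Cells were clustered in Seurat 5.3.0 (R 4.3.3) by anchor integration, with 2000 variable features without the 9 members, 30 components, resolution 0.5 and seed 1. A cluster was named from at least 3 markers of a list among its 10 leading genes, a rule set after the data were seen, as was that for collagen-rich clusters. Total UMIs were 34517542 (WT) and 35794685 (Nuc1).

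Sums per library and cluster were given as counts per 1000000 UMIs with exact Poisson, Clopper-Pearson and conditional 95% intervals (scipy 1.17.1), and the script was tested on simulated counts. No test between genotypes was made. TMM factors came from edgeR 4.0.16. Thinning drew 5000 UMIs per cell and left out shallower cells. Named genes were the members, the highest genes of each pathway list and those a member binds, and the 5 genes most like each member with at least 100 UMIs. The members and lists were chosen with earlier results of these data known. Some genes of the lists are not reported here.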

Additional observations from a re-analysis of the deposited data

Results flagged for a closer look

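At full depth the Nuc1 over WT ratio of 2 members went opposite ways in different clusters, and in neither case was the difference between clusters tested. For Mdk the log2 ratio was highest in oligodendrocyte lineage-like cluster 8, at 4.09 from 13 and 30 UMIs, and lowest in cluster 1, at -0.88 from 1386 and 342 UMIs. For Ptn it was highest in macrophage and microglia-like cluster 10, at 2.08 from 33 and 44 UMIs, and lowest in the dividing cluster 7, at -0.79 from 1120 and 377 UMIs. Both high values rest on small clusters, with 16 of 30 Mdk UMIs and 32 of 44 Ptn UMIs in a single Nuc1 cell. The low Ptn value depends on depth: after thinning, cluster 7 was at 745.9 CPM in WT and 702.7 in Nuc1.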

How the results depend on the processing

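Of 198 alternative values of the 14 log2 ratios, 167 moved by less than their counting interval in the same direction, 25 moved further and 6 reversed. Among the 25 is Ngfr thinned in collagen-rich clusters, which also changed sign, from -0.88 with an interval that included 0 to 0.20. Bdnf stayed below 0 in all 16 alternatives in astrocyte-like cells (-6.00 to -2.84) and all 12 in collagen-rich clusters, as did Vegfa in its 16 and 13. Ntf3 and Fgf2 stayed above 0 in all 13 in collagen-rich clusters.

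In astrocyte-like cells Mdk became 0.13 with at least 200 genes per cell, 0.42 with at most 10% mitochondrial UMIs and 0.18 with no doublets left out. In those settings 3, 2 and 3 Ttr-rich Nuc1 cells with 393, 283 and 393 Mdk UMIs joined the astrocyte-like cluster, and with them left out, an alternative chosen after seeing the data, Mdk was -0.33, -0.10 and -0.27. Fgf2 was -0.073 with at most 10% mitochondrial UMIs and -0.059 with the Ttr-rich cells out as well, a setting that leaves 29 WT cells. Bdnf was -6.00 and -5.99 in this pair of settings and Ptn 0.96 and 0.97. Ptn was 0.49 with TMM scaling, 0.43 centred on the median of all genes, 0.26 thinned, and 0.36 and 0.37 with Ttr-rich cells out under the 200-gene minimum and with no doublets left out. Mdk was -0.16 with TMM, with an interval that reached 0, and Manf was -0.15, and TMM shifts these cells by -0.17 on the log2 scale.

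In collagen-rich clusters, weighting clusters equally gave -0.18 for Mdk, 0.24 for Ptn, -0.026 for Manf and -0.97 for Vegfa. Thinning gave 1.55, 0.54, -0.21 and -0.021, and 0.20 for Ngfr. At most 10% mitochondrial UMIs gave 1.72 for Mdk and 0.44 for Ptn, the mean over cells 1.57 and 0.53, and for Ptn TMM gave 0.45 and centring 0.47. The cause was not tested.

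No paired analysis was possible because the design holds 1 library of each genotype. Without the minimum of 20 UMIs, Gdnf and Ngfr have only the counts given above. Merged without integration, most of clusters 0 and 2 fell into a cluster of 969 WT and 1 Nuc1 cells and another of 8 and 715. For clusters 0 and 2 the sharing between libraries thus rests on the integration. Of cluster 1, 64 cells fell into the first of these and 134 into the second. The astrocyte-like cells stayed in a cluster of 98 WT and 340 Nuc1 cells, and most of cluster 4 in one of 50 and 383. Depth limits Gdnf and Ngfr, and cell make-up, sex, culture and genotype cannot be told apart with these libraries.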
